A study of Mus musculus with 12 samples.

Results

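The expression of 8 genes of major histocompatibility complex (MHC) class II antigen presentation was followed in mouse jejunal tissue after loss of the recycling endosome GTPases Rab11a and Rab11b. The members were taken by symbol from the 23988 genes of the deposited table. They are the class II chains H2-Aa, H2-Ab1 and H2-Eb1, the peptide loading genes H2-DMa, H2-DMb1, H2-DMb2 and Cd74, and the activator Ciita. All 8 were present and all 8 passed the filter on low values, as did 13675 genes in all. Adult mice formed 4 groups of 3 RNA-seq libraries. DKO was Rab11aL/L, Rab11b-/-, VillinCreER+, BKO was Rab11b-/-, AKO was Rab11aL/L, VillinCreER+, and WT was labelled only as WT. Every group, WT included, had received tamoxifen at 40 mg/kg and was sampled 2 days later. VillinCreER is driven by the villin promoter and acts in intestinal epithelium, so other cells of the tissue keep Rab11a, whereas Rab11b-/- is in every cell. Whether the WT and BKO groups had Cre or a floxed Rab11a is not in the labels, and neither is whether numbered libraries come from separate animals, so p-values measure the spread between these libraries.

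MHC class II molecules are heterodimers of an alpha and a beta chain that show peptides from endosomes to CD4+ T cells. The invariant chain, encoded by Cd74, fills the groove of a new class II molecule and steers it to endosomes, where the DM heterodimer exchanges the remaining invariant chain fragment for a peptide. Ciita binds no DNA itself and acts through RFX, NF-Y and CREB factors that sit on the X and Y boxes of class II promoters. Dendritic cells, macrophages and B cells express class II constitutively or on activation, and villus epithelium of the small intestine expresses it as well, in a manner that depends on interferon gamma.

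These boxes could be seen in the promoters of 4 members, and the stretches are shown because Ciita acts on class II genes through them. RefSeq promoters (GRCm38.p6, a different build from the mm9 of the submitters' processing notes) matched 5 of the 8 members by symbol. In each line the X-box core AACNGATG or the CRE-like TGACGTCA and the Y-box TGATTGG are in capitals, and the strand is that of the gene.
H2-Aa, chr17:34287852-34287922, minus strand: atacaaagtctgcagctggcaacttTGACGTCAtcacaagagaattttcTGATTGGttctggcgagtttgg
H2-Eb1, chr17:34305753-34305827, plus strand: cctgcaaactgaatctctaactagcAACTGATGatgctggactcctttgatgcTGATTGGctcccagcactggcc
H2-DMb1, chr17:34153074-34153149, plus strand: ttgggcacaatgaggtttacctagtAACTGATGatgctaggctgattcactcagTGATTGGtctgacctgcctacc
H2-DMb2, chr17:34145103-34145178, plus strand: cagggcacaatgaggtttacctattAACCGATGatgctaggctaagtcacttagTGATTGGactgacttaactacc
The Y-box began 24 bases after the first upstream motif in H2-Aa, 28 in H2-Eb1 and 29 in both H2-DMb1 and H2-DMb2. Searched on both strands over the 250 bases before the start, the X-box core was in 1.98% of 32851 promoters, TGACGTCA in 1.55% and TGATTGG in 7.23%. The X-box core followed by a TGATTGG whose first base lies 20 to 45 bases further on was in 6 promoters (0.0183%), those of H2-Eb1, H2-DMb1, H2-DMb2, H2-Eb2, BC051142 and Gm35444. These motif letters overlap in no member, were chosen after the member promoters had been read, and were not found in either H2-DMa window, which says only that these letters are not there.

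The libraries held 19200380 to 29828587 fragments, recovered from the values. Values are fragments scaled between libraries (fpm) and not divided by gene length, so levels are compared within a gene and not between genes. Rab11b was at 22.9 ± 1.55 in DKO, 27.0 ± 4.23 in BKO, 112 ± 6.67 in AKO and 116 ± 5.07 in WT (SD, n = 3 each), and Rab11a at 106 ± 8.48 in DKO, 230.0 ± 39.7 in BKO, 59.4 ± 9.43 in AKO and 186 ± 3.87 in WT. BKO replicate 3 stood apart from the other BKO libraries on the first principal component (58.5% of the variance), at -52.8 against 30.5 and 34.0, near the DKO libraries at -71.6 to -64.1. On the second component (12.9%) it lay apart from DKO too, at -63.4 against 11 to 29.3 in DKO. The remaining libraries were at -6.72 to 8.36 there. Counts of called genes are given with and without BKO replicate 3. Of 10 enterocyte markers, Lct was at 0 in all WT and BKO libraries and at most 0.263 elsewhere, and Fabp1 was at 2.87 to 8.05 in WT, while Anpep was at 8442 to 10036 in WT. Xist was above 100 in all DKO libraries, BKO replicates 1 and 2, AKO replicate 2 and WT replicate 1, and under 1 in the others. The Xist state was therefore not balanced between DKO and AKO or between DKO and WT.

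All 8 members fell in DKO against WT, to 3.73% of the WT mean for Ciita and up to 11.2% for H2-Eb1. Among all genes tested 17.2% were called lower by limma (adjusted p below 0.05), and 31.8% were called in either direction. The median log2 change of the members was -3.61, beside -0.009 over all genes. In the fit, log2 is taken of the value plus 1. In BKO replicate 3 all 8 members were lower still, below every DKO library, whereas BKO replicates 1 and 2 held 71.4% to 84.1% of the WT mean for all members but H2-DMb2. In AKO the members were at 60.0% to 86.1% of the WT mean and none was called.

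The alpha and beta chains of the I-A molecule moved alike. H2-Aa, the I-A alpha chain, was at 138, 87.3 and 113 in DKO, at 1154, 1378 and 17.8 in BKO, at 1261, 1522 and 1272 in AKO, and at 1631, 1543 and 1536 in WT. The DKO libraries and BKO replicate 3 were low, and the 8 others lay between 1154 and 1631 with AKO wholly below WT. Its log2 change in DKO against WT was -3.81 ± 1.24 (SE, adjusted p = 0.0385). H2-Ab1, the I-A beta chain, was at 133, 94.4 and 121 in DKO, at 902, 1184 and 19.0 in BKO, at 1068, 1263 and 973 in AKO, and at 1478, 1314 and 1242 in WT. DKO and BKO replicate 3 were again the lowest, and AKO replicate 2 reached into the WT range. Its log2 change was -3.53 ± 1.17 (adjusted p = 0.0405).

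H2-Eb1, the beta chain of the I-E molecule, kept the largest share of its WT level in DKO. It was at 114, 80.1 and 89.9 in DKO, at 575, 716 and 16.3 in BKO, at 705, 756 and 650 in AKO, and at 862, 894 and 782 in WT. Again DKO and BKO replicate 3 were separate from all others, and its log2 change was -3.16 ± 1.07 (adjusted p = 0.0437). H2-Ea-ps, the alpha chain pseudogene of that pair, was listed at 0 in all 12 libraries.

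Cd74, the invariant chain, was at 524, 320 and 352 in DKO, at 2775, 3254 and 63.0 in BKO, at 3415, 3211 and 3112 in AKO, and at 4160, 4218 and 3576 in WT. The DKO mean was 10.01% of the WT mean, and the log2 change of -3.35 ± 1.14 had the highest adjusted p among the members (0.0454). AKO lay below WT without overlap, by 0.29 on the log2 scale, and was not called (adjusted p = 1).

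The DM genes, whose products load peptides, fell in DKO as the chains did. H2-DMa was at 12.9, 8.37 and 11.2 in DKO, at 110, 137 and 3.60 in BKO, at 124, 123 and 123 in AKO, and at 165, 154 and 149.96 in WT. No value of DKO came near any AKO or WT value, and the log2 change was -3.75 ± 0.97 (adjusted p = 0.0151). H2-DMb1 was at 14.4, 9.35 and 13.8 in DKO, at 120 (119.8), 166 and 1.87 in BKO, at 133, 148 and 139 in AKO, and at 183, 152 and 174 in WT. BKO replicate 2 lay inside the WT range, and the log2 change in DKO was -3.68 ± 1.15 (adjusted p = 0.0329).

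H2-DMb2, a second DM beta gene beside H2-DMb1, departed from the others. It was at 2.67, 1.70 and 2.20 in DKO, at 15.9, 0 and 0.257 in BKO, at 23.0, 20.6 and 17.4 in AKO, and at 24.2, 54.5 and 22.9 in WT. WT replicate 2 stood above the rest, and BKO replicate 2 had 0 reads where H2-DMb1 had 2942. A count of 0 there allows up to 0.169 (3 reads), and BKO replicate 3 had 7 reads. Its log2 change in DKO was -3.35 ± 0.84 (adjusted p = 0.0134). The main GENCODE M21 transcripts of H2-DMb1 and H2-DMb2 were 94.4% identical over 1255 aligned bases, with a longest identical run of 221 bases. Reads can therefore be split between them, and the share of each gene is uncertain.

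Ciita, the transactivator, was the member with the largest log2 change in DKO. It was at 4.61, 2.73 and 2.97 in DKO, at 57.0, 74.4 and 0.367 in BKO, at 86.5, 56.5 and 90.2 in AKO, and at 86.0, 105 and 85.1 in WT. DKO replicates had 95, 72 and 65 reads and BKO replicate 3 had 10, against 2110 to 2871 in WT. The log2 change was -4.41 ± 1.15 (adjusted p = 0.0156), 26th lowest of the 13675 genes. Per 1000 scaled fragments of the 7 other members, Ciita was at 4.23 to 4.91 in DKO, 3.01 to 10.9 in BKO, 8.02 to 14.4 in AKO and 10.1 to 12.6 in WT. The 3 DKO libraries and BKO replicate 3 were the lowest here as well. AKO replicate 2 had the least Ciita of its group but the most H2-Aa, H2-Ab1 and H2-Eb1.

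**Figure D1:**
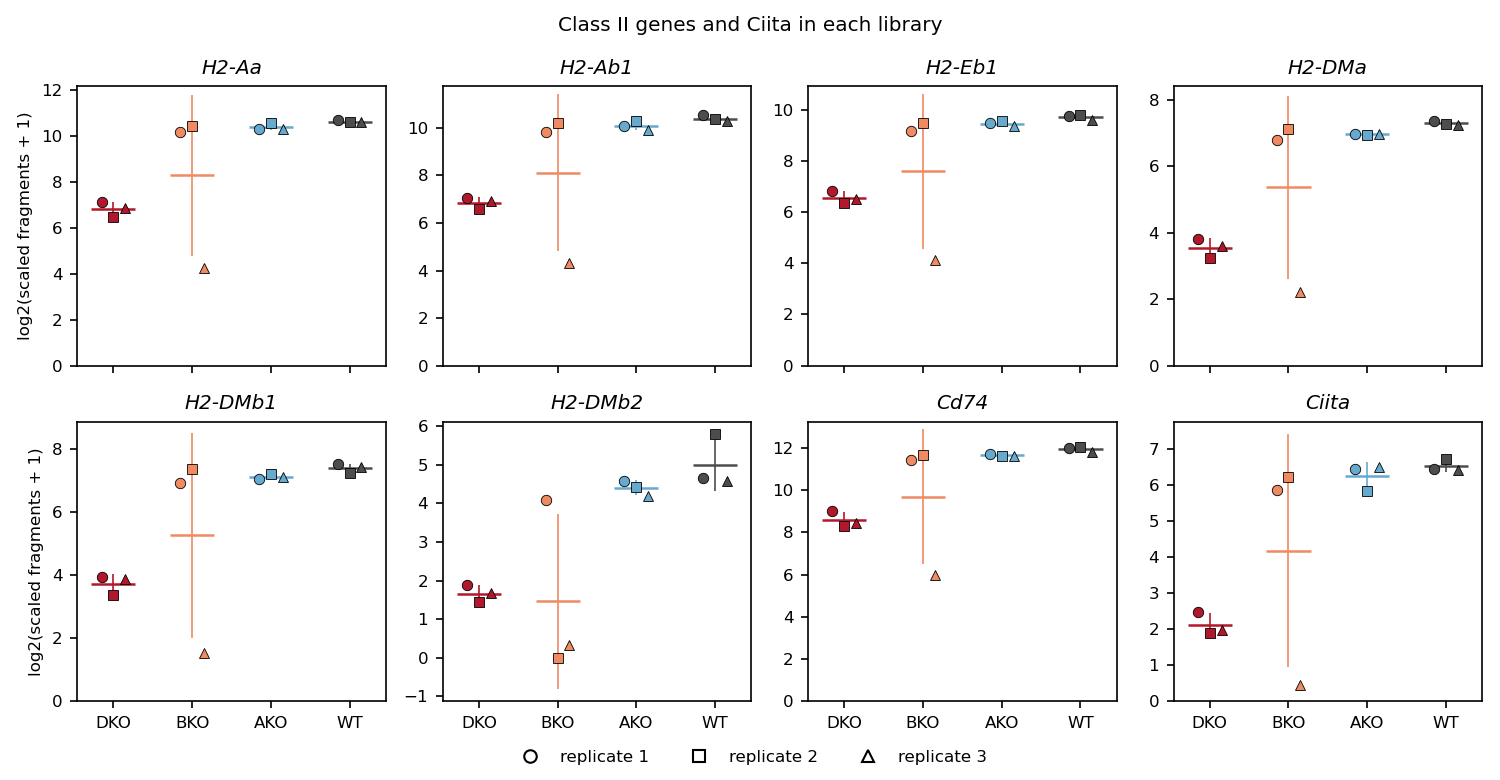
Level of each member in each library, as log2 of scaled fragments plus 1, with the group mean and SD as lines (n = 3) and the replicate number as symbol shape. DKO lies below AKO and WT for all 8 genes, and BKO replicate 3 lies below every DKO library.

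Within DKO the members kept 1 order of libraries, with replicate 1 highest and replicate 2 lowest for all 8 members. Over the 12 libraries, Pearson correlations of log2 values between the 7 members other than H2-DMb2 were at least 0.983, and those of H2-DMb2 with them were 0.70 to 0.728. In the 11 libraries other than BKO replicate 3 they were at least 0.988, and 0.598 to 0.645 for H2-DMb2. These are descriptions of libraries that fall into a low and a high cluster. The 7 members other than Ciita summed to 0.0662% to 0.0963% of all values of a library in DKO, 0.0119% to 0.632% in BKO, 0.667% to 0.721% in AKO and 0.749% to 0.842% in WT.

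The calls in DKO against WT depended on which libraries were in the fit, which has 1 spread per gene for all groups. Without BKO replicate 3 all 8 were called, where 45.1% of all genes were, with a standard error for H2-Aa of 0.16 (adjusted p = 1.14e-07), for Ciita of 0.21 (1.76e-07) and a highest adjusted p of 0.0054 for H2-DMb2. Leaving it out lowered the standard error of the 7 other members to 0.21 or less, but that of H2-DMb2 only to 0.78 from 0.84; for H2-DMb2 it was 0.30 without BKO replicate 1. All 8 also passed without BKO replicate 1 or BKO replicate 2, where 30.7% and 33.1% of all genes were called. The number called was 1 without DKO replicate 2, 2 without WT replicate 2, 3 without DKO replicate 1, DKO replicate 3, WT replicate 1 or WT replicate 3, and 4 without any 1 of the AKO libraries. The share of all genes called was also lower in these 9 fits, at 19.9% to 30.8%, with 19.9% without DKO replicate 2 and 22.3% without WT replicate 2. With no filter on low values 4 members were called, where 23.7% of all genes were. The median member change stayed between -3.71 and -3.45 over these 12 fits. In all 8 genes DKO and WT did not overlap, as was so, in the lower direction, for 29.5% of all genes tested.

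In BKO against WT no member was called, where 0.0439% of all genes were called (6 genes). At an unadjusted p under 0.05, 1 member, H2-DMb2, passed (log2 change -3.54 ± 0.84, adjusted p = 0.331), and 10.7% of all genes did. edgeR and DESeq2 also called 0 members, where they called 0.0337% and 1.37% of all genes. Ciita had a log2 change of -2.35 ± 1.15 (adjusted p = 0.49) and H2-Aa one of -2.34 ± 1.24 (adjusted p = 0.522). The median member change of -2.264 was -0.922 in edgeR and -0.948 in DESeq2, and leaving out BKO replicate 1, 2 or 3 gave -3.124, -3.215 and -0.386. In the last of these fits no member was called, where 0.0586% of all genes were. Ciita was then at -0.48 ± 0.23 (adjusted p = 0.481) and H2-Aa at -0.32 ± 0.18 (adjusted p = 0.518). BKO replicates 1 and 2 lay below all WT libraries for 7 of 8 members, all but H2-DMb1, and all 3 BKO libraries were lower without overlap for the same 7, against 7.68% of all genes. Without BKO replicate 1, H2-DMb2 was the 1 member called (adjusted p = 0.00029), where 0.0659% of all genes were called.

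BKO replicate 3 was 43.5-fold (H2-DMa) to 251-fold (Ciita) below the WT mean and 31.0-fold to 179-fold below the mean of BKO replicates 1 and 2. It was 2.33-fold to 7.43-fold below the lowest DKO library. Rab11a in this library was at 275, the highest of all 12, and Rab11b at 22.4 was like the other null libraries. Its Xist value was 0.22, against 201 and 254 in BKO replicates 1 and 2. The labels give BKO replicate 3 the same genotype as BKO replicates 1 and 2, and a reason for its profile was not tested.

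In AKO against WT no member was called, and 0.00731% of all genes were (1 gene). No member had an unadjusted p under 0.05, and 0.995% of all genes did. edgeR, DESeq2 and the fit without BKO replicate 3 called 0 members, and 0.00675%, 0.0165% and 0.00732% of all genes. All 8 AKO means were below WT, and 5 members lay lower without overlap, against 4.78% of all genes. The log2 changes were -0.22 (H2-Aa) to -0.60 (H2-DMb2), with a median of -0.284, beside -0.011 over all genes.

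DKO against AKO, the addition of the Rab11b null, gave 5 called members, all lower, where 32.2% of all genes were called and 17% were called lower. The 5 were H2-Aa (-3.59 ± 1.24, adjusted p = 0.0473), H2-DMa (-3.42 ± 0.97, 0.0224), H2-DMb1 (-3.40 ± 1.15, 0.0438), H2-DMb2 (-2.74 ± 0.84, 0.0305) and Ciita (-4.14 ± 1.15, 0.0202). H2-Ab1 (-3.24 ± 1.17, adjusted p = 0.0543), H2-Eb1 (-2.90 ± 1.07, 0.059) and Cd74 (-3.06 ± 1.14, 0.0619) missed the threshold. All 8 had no overlap, and 27.9% of all genes were lower without overlap. Without BKO replicate 3, which is in neither group, and without BKO replicate 2, all 8 were called, and 6 without BKO replicate 1. The count was 0 without DKO replicate 2, DKO replicate 3, AKO replicate 1 or AKO replicate 3, 1 without AKO replicate 2, 2 without DKO replicate 1 and 3 without any 1 WT library. In these 9 fits 20.5% to 29.7% of all genes were called, and 45.4% without BKO replicate 3. edgeR called 7 members (28.9% of all genes) and DESeq2 7 (28.2%).

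DKO against BKO, the addition of the Rab11a deletion, turned on BKO replicate 3. With it, 0 of 8 members were called, where 23.0% of all genes were, and no member had an unadjusted p under 0.05 (37.6% of all genes did). The DKO and BKO values overlapped for all 8 members, although BKO replicates 1 and 2 lay above every DKO library for 7 of them. The share of all genes with such an overlap was not counted. edgeR called 2 members (20.4% of all genes) and DESeq2 7 (22.5%). Without BKO replicate 3, 7 members were called lower, where 45.6% of all genes were called, with Ciita at -3.92 ± 0.23 (adjusted p = 1.22e-06) and Cd74 at -2.94 ± 0.21 (adjusted p = 3.2e-06). H2-DMb2 was the exception at -0.38 ± 0.87 (adjusted p = 0.746). The 1 member called without BKO replicate 1 was again H2-DMb2, there higher in DKO (adjusted p = 0.0227), where 11.9% of all genes were called.

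The interaction, DKO minus AKO minus BKO plus WT, asks whether the joint loss changed a gene by more than the sum of both single changes on the log2 scale. No member was called (3.96% of all genes were), and none had an unadjusted p under 0.05 (23.9% of all genes did). With edgeR and DESeq2 0 members were called, where 2.37% and 9.8% of all genes were. The median was -1.109, with Ciita at -1.79 ± 1.63 (adjusted p = 0.527). It was -2.482 in edgeR, -2.459 in DESeq2, -0.209 with BKO replicate 1 left out and -0.057 with BKO replicate 2 left out. Without BKO replicate 3, 7 members were called, where 30.6% of all genes were, with a median of -2.969. Ciita then had -3.66 ± 0.31 (adjusted p = 3.45e-05), H2-Aa -3.27 ± 0.24 (1.51e-05) and H2-DMa -3.07 ± 0.21 (8.99e-06), and H2-DMb2 was not called (0.23 ± 1.17, adjusted p = 0.899). These comparisons share their DKO, BKO, AKO and WT libraries and are not independent of each other.

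**Figure D2:**
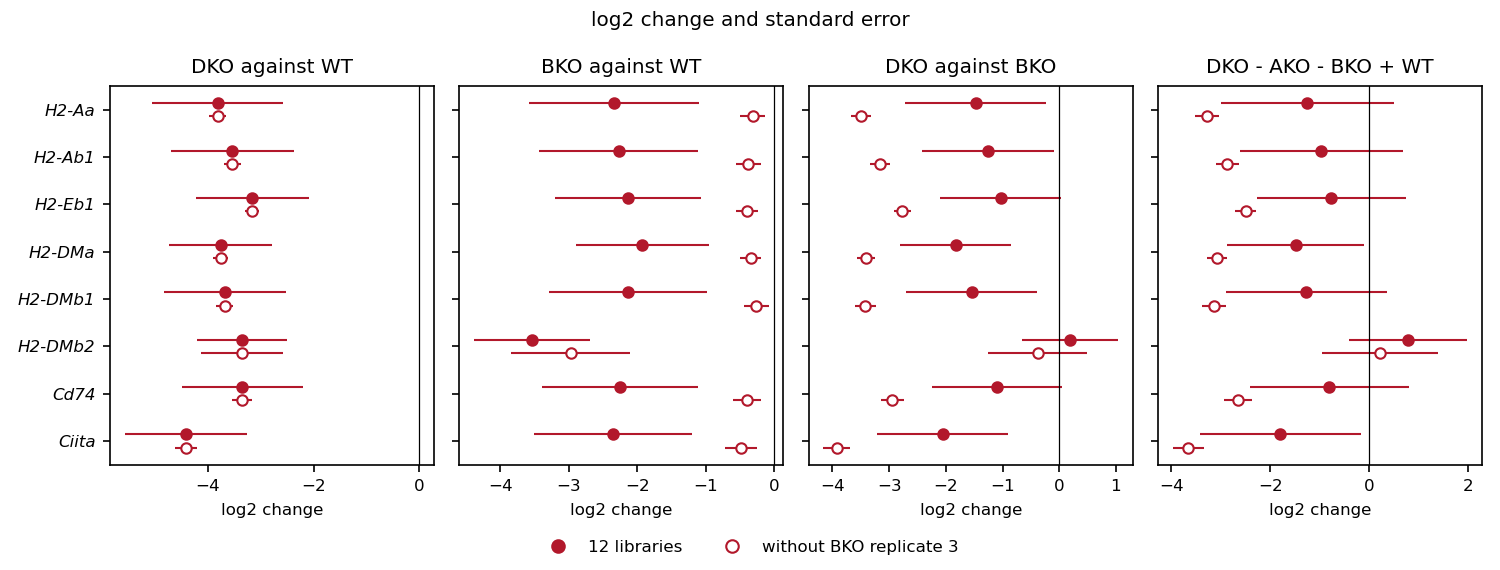
Fitted log2 change of each member with its standard error, with all 12 libraries (filled) and without BKO replicate 3 (open), for DKO against WT, BKO against WT, DKO against BKO and the interaction. Leaving the library out narrowed the errors in DKO against WT, and brought 7 members, all but H2-DMb2, below -2.4 in both of the last panels.

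The 6 H2 members lie on chromosome 17, as does Rab11b, with 27 to 37 genes of the table between each of them and Rab11b in RefSeq order. Cd74 is on chromosome 18 and Ciita on chromosome 16. BKO and DKO share the Rab11b null allele, so an effect of sequence carried along with that allele and an effect of Rab11b loss cannot be told apart for the H2 genes. The genes away from chromosome 17 had DKO levels of 10.01% (Cd74) and 3.73% (Ciita) of WT, and the H2 members of 6.46% to 11.2%.

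Other cells of the tissue also express class II, and in bulk RNA fewer cells of a type and less RNA per cell cannot be told apart. Counts of called list genes in DKO against WT stand beside 2353 genes called lower and 1995 called higher of all 13675 tested. Without BKO replicate 3, 3248 of 13653 genes were called lower and 2905 higher. The 10 B cell markers summed to 7.87 to 13.3 in DKO, 3.30 to 10.2 in BKO, 9.30 to 96.7 in AKO and 22.1 to 627 in WT. The 4 that passed the filter on low values had a median log2 change of -2.11 in DKO against WT and 0 were called, or 1 without BKO replicate 3. WT replicate 2, which held the 627, was the highest of all libraries for H2-Eb1, H2-DMb2, Cd74 and Ciita, and WT replicate 1 for the other 4 members. The members summed to 8435 in WT replicate 2, and to 8589 and 7568 in WT replicates 1 and 3. Of the B cell markers, 2 were at 0 in all DKO libraries and 3 in all BKO libraries.

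Class II genes typical of B cells were also highest in WT replicate 2. H2-Ob, a chain of the DO protein that restrains DM in B cells, was at 0.485, 0.341 and 0.549 in DKO, at 1.02, 0.225 and 0 in BKO, at 7.54, 1.32 and 1.27 in AKO, and at 1.06, 52.2 and 1.59 in WT. H2-Eb2 was at 46.7 in WT replicate 2 and 6.29 in AKO replicate 1, and at most 1.36 in the other libraries. The 3 genes of this list that were tested, H2-Oa, H2-Ob and H2-Eb2, had a median of -1.933 in DKO against WT and none was called.

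Dendritic cells and macrophages were each followed by a list of markers. Dendritic cell markers, of which Cd209a was at 0 in all DKO libraries, summed to 20.9 to 26.2 in DKO, 6.61 to 53.2 in BKO, 33.9 to 55.8 in AKO and 58.4 to 65.3 in WT. Most of the gap between the DKO and WT sums lay in Itgae, at 3.41 to 6.22 in DKO and 33.4 to 44.7 in WT. Cd8a, of the T and NK cell list, was at 2.84 to 8.05 in DKO and 31.2 to 33.1 in WT. Which cells carried Itgae was not tested, so the fall of this sum cannot be read as one of dendritic cells. The log2 change of Itgae, -2.76 ± 0.97, was not called (adjusted p = 0.0506). A negative change was seen for 5 tested markers, Itgae included, while Itgax averaged 13.1 in DKO and 10.9 in WT. Of 6 tested, 1 fell in DKO against WT, Xcr1 (-0.99 ± 0.31, adjusted p = 0.0341), a receptor of cross-presenting dendritic cells, and 2 without BKO replicate 3. Macrophage markers summed to 203 to 225 in DKO, 97.5 to 218 in BKO, 179.9 to 253 in AKO and 191 to 263 in WT, and of 10 tested 3 rose (Cd68, C1qb and Fcgr1) and 1 fell (Mertk), or 2 without BKO replicate 3. T and NK cell markers, whose cells make no class II in mice but are a source of interferon gamma, summed to 24.5 to 60.0 in DKO, 8.84 to 287 in BKO, 158 to 240 (239.8) in AKO and 254 to 299 in WT. Of 10 tested, 5 fell in DKO against WT, among them Cd3e (-2.82 ± 0.87, adjusted p = 0.0312), with a median of -2.555, and Ncr1 was at 0 in all DKO libraries. All 10 fell when BKO replicate 3 was left out. Plasma cell markers summed to 643 to 1088 in DKO, 16.6 to 835 in BKO, 754 to 2030 in AKO and 1456 to 1937 in WT; of 5 tested none was called, and 3 were lower without BKO replicate 3. Group 3 innate lymphoid cell markers summed to 34.3 to 39.5 in DKO, 20.8 to 88.8 in BKO, 71.1 to 111 in AKO and 70.7 to 83.2 in WT, with Il23r at 0 in all DKO and BKO libraries. Among those tested, Il1r1 rose in DKO against WT (1.89 ± 0.22, adjusted p = 0.000409). The part of these cells in the loss of class II was not tested.

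General epithelial markers summed to 24835 to 33856 in DKO, 28252 to 29815 in BKO, 22303 to 22559 in AKO and 24128 to 26937 in WT. Of 10 tested, 1 rose (Krt18) and 2 fell (Vil1 and Cdx2) in DKO against WT, with a median of 0.029, and 2 rose and 3 fell without BKO replicate 3. Set against this sum, Cd74 was at 0.0128 to 0.0155 in DKO, 0.00211 to 0.115 in BKO, 0.138 to 0.153 in AKO and 0.141 to 0.175 in WT. The 3 DKO libraries and BKO replicate 3 were the lowest on this scale too. Enterocyte markers summed to 4794 to 6115 in DKO, 15086 to 29172 in BKO, 16234 to 28990 in AKO and 20211 to 23213 in WT, and 7 of 9 tested fell in DKO against WT, with or without BKO replicate 3. BKO replicate 3, with the least class II, had an enterocyte sum of 15086. Its markers did not move together: Apoa4 was at 3068 (158 to 545 in WT) and Fabp1 at 242 (2.87 to 8.05 in WT), while Anpep was at 3703 (8442 to 10036 in WT) and Slc5a1 at 611 (1335 to 1601 in WT). Whether fewer mature enterocytes account for the fall in DKO was not tested.

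**Figure D3:**
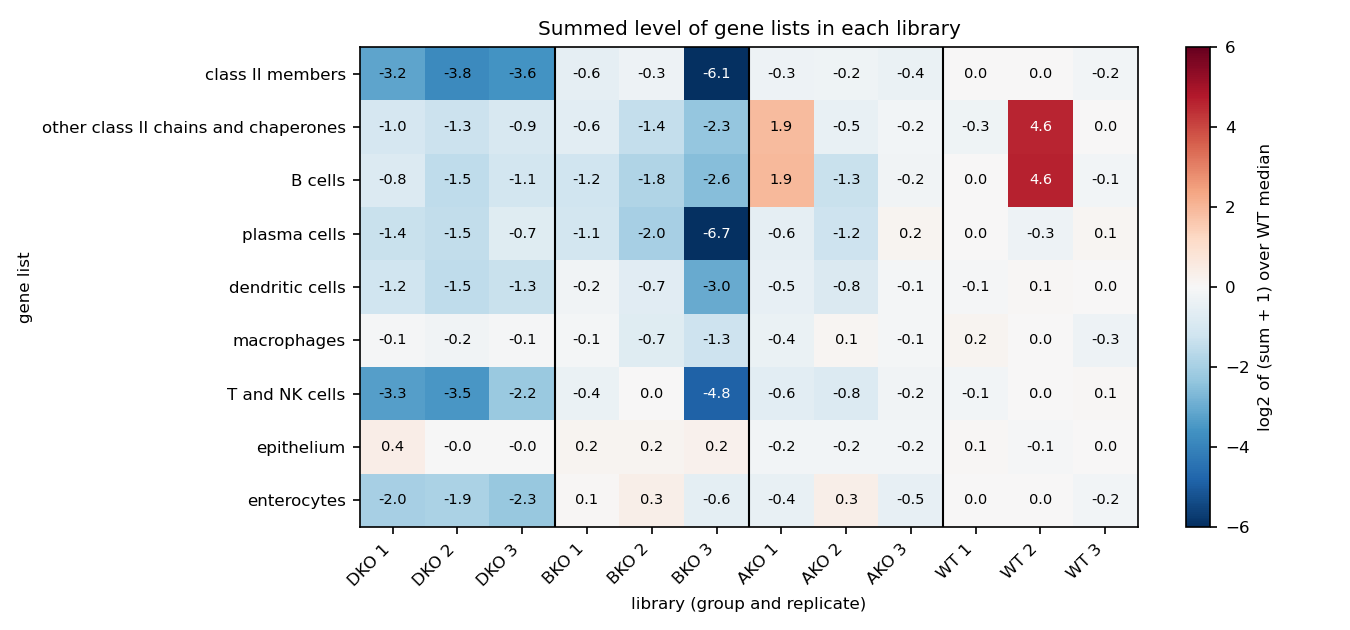
Summed level of gene lists in each library as log2 of (sum + 1) over the WT median, with libraries in columns and lists in rows. The class II members were low in the 3 DKO libraries and BKO replicate 3, while the B cell list was high in WT replicate 2 and the epithelium list lay between -0.18 and 0.42.

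Interferon gamma signalling leads to transcription of Ciita, and some of its genes fell in DKO. Of 9 tested genes of interferon gamma signalling, 3 fell in DKO against WT and none rose, with a median of -0.389, where 17.2% of all genes were called lower. With BKO replicate 3 left out, 6 fell, where 3248 of 13653 genes were called lower. Irf1, a transcription factor that acts on the inducible Ciita promoter, was at 88.0, 89.3 and 109 in DKO, at 236, 256 and 42.2 in BKO, at 261, 146 and 279 in AKO, and at 335, 262 and 275 in WT (-1.59 ± 0.55, adjusted p = 0.0485). With the replicate number as a block it was not called (adjusted p = 0.0635), and without BKO replicate 3 its adjusted p was 0.000189. Its lowest value was in BKO replicate 3 and its lowest AKO value in replicate 2. Ifngr2, a receptor chain, averaged 128 ± 19.8 in DKO and 247 ± 13.5 in WT (-0.96 ± 0.31, adjusted p = 0.0379). Ifngr1 and Jak1 were not called. Ifng itself was under the filter at 0 to 0.869 in DKO, 0 to 0.619 in BKO, 0 to 0.877 in AKO and 0.489 to 1.02 in WT.

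Of 14 tested genes induced by interferon gamma, 3 fell in DKO against WT and 11 were not called, with a median of -1.019. Of all genes tested, 17.2% were called lower in this comparison. The number that fell was 7 without BKO replicate 3, where 3248 of 13653 genes were called lower. Ubd, a ubiquitin-like modifier, was at 4.32, 2.12 and 5.67 in DKO, at 59.5, 101 and 0 in BKO, at 53.8, 18.5 and 122 in AKO, and at 135, 131 and 119 (119.5) in WT (-4.75 ± 1.38, adjusted p = 0.0245). The guanylate binding proteins Gbp6 (-3.04 ± 0.79, adjusted p = 0.015) and Gbp8 (-2.67 ± 0.70, adjusted p = 0.0156) also fell. Gbp2 (-0.26 ± 0.53, adjusted p = 0.728) and Cxcl10 (0.36 ± 0.55, adjusted p = 0.64) were not called.

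Nlrc5, the relative of Ciita that activates class I genes, was at 7.76, 4.202 and 5.95 in DKO, at 16.6, 20.4 and 0.404 in BKO, at 17.4, 8.83 and 26.0 in AKO, and at 25.0, 20.2 and 18.1 in WT. Its log2 change of -1.69 ± 0.83 was not called (adjusted p = 0.144), and without BKO replicate 3 it was (adjusted p = 0.00176). All 6 of its listed class I partners fell in DKO against WT, among them B2m, the class I light chain (501 ± 115 in DKO and 2618 ± 298 in WT, -2.40 ± 0.69, adjusted p = 0.0234), and the immunoproteasome subunit Psmb9 (17.7 ± 6.92 in DKO and 132 ± 21.8 in WT, -2.89 ± 0.83, adjusted p = 0.0234). The list had a median of -2.402, beside -3.606 for the class II members.

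Of 7 tested factors that hold Ciita at the X and Y boxes, 0 passed in DKO against WT and 2 fell without BKO replicate 3, with a median of -0.241; Rfxap was at 9.89 to 10.2 in DKO and 9.84 to 10.2 in WT, and Rfx5 at 7.78 to 12.6 in DKO and 11.4 to 17.5 in WT. Rfxank was at 15.9, 10.6 and 5.86 in DKO and 19.0, 20.04 and 17.9 in WT (-0.85 ± 0.36, adjusted p = 0.0949); without BKO replicate 3 it was called (adjusted p = 0.0304).

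Of 8 tested genes of the endosomal processing list, 3 rose and 1 fell in DKO against WT (2 without BKO replicate 3), with a median of 0.127. Besides genes that prepare peptides, the list held the tetraspanins Cd9 and Cd63. The endosomal protease Ctsl rose to 106 ± 7.72 in DKO, against 35.6 ± 2.72 in WT (1.54 ± 0.12, adjusted p = 6.36e-05), and Lgmn, the asparaginyl endopeptidase, to 143 ± 19.8, against 58.2 ± 0.647 (1.27 ± 0.25, adjusted p = 0.00395). The tetraspanin Cd9 rose as well (1.16 ± 0.15, adjusted p = 0.000746). Ifi30, the lysosomal thiol reductase, fell to 73.0 ± 5.83 in DKO, against 113 ± 17.6 in WT (-0.62 ± 0.14, adjusted p = 0.00864). Ctss, which trims the invariant chain in antigen presenting cells, was at 125, 118 and 139 in DKO, at 282, 306 and 65.2 in BKO, at 249, 326 and 262 in AKO, and at 280 (279.5), 277 and 275 in WT, and was not called (-1.12 ± 0.45, adjusted p = 0.081), but was without BKO replicate 3 (adjusted p = 2.31e-05). Of 4 tested co-stimulation genes none was called, and 1 was lower without BKO replicate 3 (median -0.359). The class II ubiquitin ligase genes were not analysed here.

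**Figure D4:**
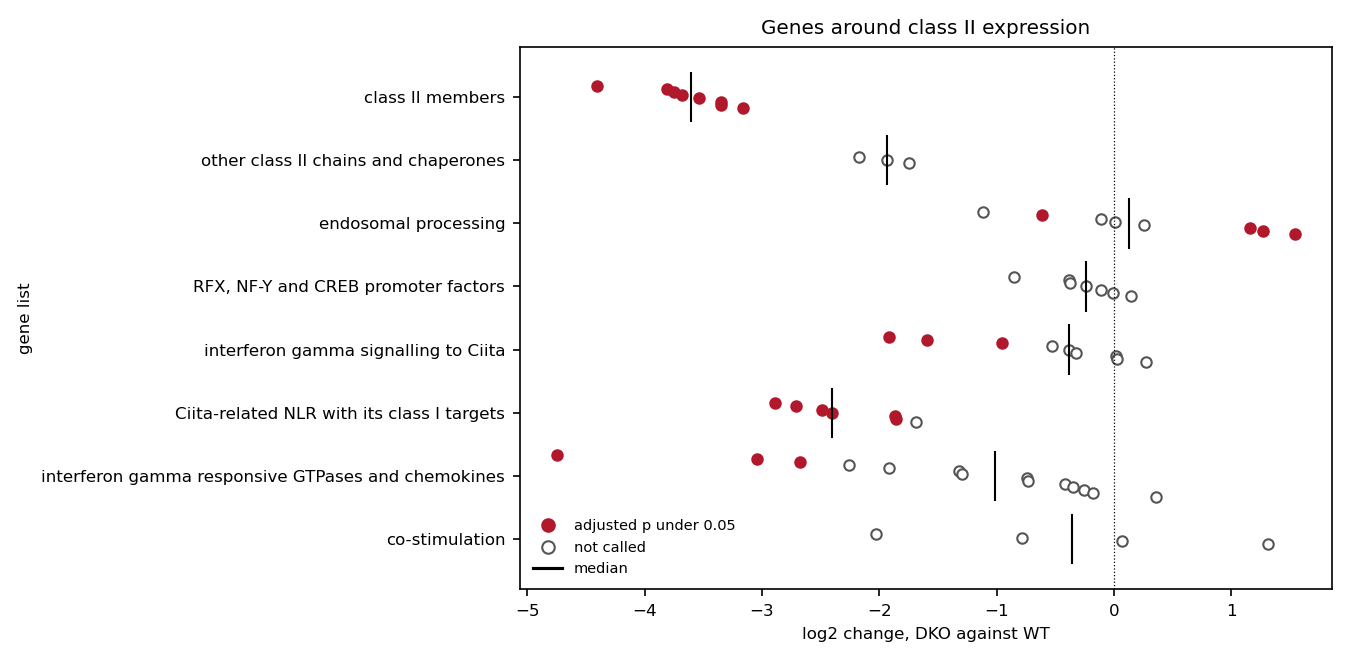
log2 change in DKO against WT of every tested gene in the lists around class II expression, filled where the adjusted p was under 0.05, with the list median as a line. The members lie at -4.41 to -3.16, the class I partners of Nlrc5 at -2.89 to -1.86 and the promoter factors at -0.85 (Rfxank) to 0.14 (Nfyb).

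Over the 12 libraries the non-member genes most like the mean of the 7 members other than Ciita were B2m (Pearson r = 0.988 on log2 values), H2-T10 (0.988), Sectm1b (0.986), Uba7 (0.985), Zcchc11 (0.985), Tapbp (0.985), Fas (0.982), Hspa12a (0.982), Hrh1 (0.98) and Ube2l6 (0.98). Those most like Ciita were Pik3ap1 (0.993), Parp10 (0.992), B2m (0.991), Zcchc11 (0.991), Tapbp (0.99), Hspa12a (0.988), Pdk3 (0.987), Tapbpl (0.986), Xdh (0.986) and Dexi (0.986). Sectm1b was at 61.6, 32.3 and 35.2 in DKO, at 551, 613 and 2.90 in BKO, at 584, 747 and 537 in AKO, and at 636, 501 and 593 in WT. These correlations rest on the same gap between 4 low and 8 high libraries and carry no test. Dexi is the next gene to Ciita in RefSeq order and overlaps it by 858 bases, and the TruSeq v2 protocol keeps no strand, so reads in the overlap cannot be told apart.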

How the data were processed

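Members and gene lists were chosen with earlier results of these data known. RNA of jejunal tissue was sequenced from TruSeq v2 libraries, per the labels. The submitters' processing notes name FastQC 0.11.3, Trimmomatic 0.36, DESeq2 and build mm9; the table's name mentions HISAT2. The sources used here give neither counting tool nor annotation. The unit is signal: fragments multiplied by 1 factor per library (fpm), as the authors deposited them. Every value was a whole multiple of 1 step per library within 0.001 reads, which gave 19200380 to 29828587 fragments; counting error only is covered by floors (3 reads).

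limma 3.58.1 (R 4.3.3) with a trended prior was fitted to log2(value + 1), 1 coefficient per group and all 12 libraries (8 residual degrees of freedom), for 13675 genes with at least 1 in at least 3 libraries. Tests were two-sided, with Benjamini-Hochberg adjustment over all genes tested; errors of log2 changes are standard errors. The fit was tested on simulated data in which every library had the same spread. None of them was outlying as BKO replicate 3 is here, so that case was not covered. edgeR 4.0.16 and DESeq2 1.42.0 on recovered reads were alternatives, with other pseudocounts, filters, scalings, weights, an Xist term, a replicate block and each library left out. Named genes were the members, up to 4 called genes per list, and counterparts such as Nlrc5, Ctss, Rfxank and H2-Ob. Also named were the 10 genes most correlated with Ciita or the other members (predicted and clone-named genes left out). Gbp2, Cxcl10, Anpep, Rfx5, Rfxap, Itgae and Itgax were named after their values were seen. Python 3.11.15 searched motifs. Results of some genes are not reported here.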

Additional observations from a re-analysis of the deposited data

Results flagged for a closer look

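No member had a called interaction with all 12 libraries. Among the other genes named, 5 had one by limma, that is, their change in DKO differed from the sum of both single changes: C1qb (1.95), Ctsl (1.196), Cd9 (1.04) and Il1r1 (1.61) on the positive side and Sis (-2.85) on the negative side, each a log2 value. All 5 were also called without BKO replicate 3 (adjusted p of 0.000341 to 0.00365). Ctsl averaged 106 in DKO, 41.8 in BKO, 39.0 in AKO and 35.6 in WT. Sis, the sucrase-isomaltase of enterocytes, averaged 301 in DKO, 2217 in BKO, 1972 in AKO and 1912 in WT. Groups of 3 libraries were not tested for single outlying values.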

How the results depend on the processing

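Of the members called by comparison, the counts moved as follows. The share of all genes called in the same fit is given in brackets. In DKO against WT 8 became 4 with no filter (23.7%) and 7 with a pseudocount of 0.1 (30.7%). In DKO against AKO 5 became 2 with a pseudocount of 0.1 (31.3%), 3 with no filter (23.8%) and 6 with a pseudocount of 5 (32.5%). It became 7 with quantile scaling (34.2%), edgeR (28.9%) or DESeq2 (28.2%). It became 8 with quality weights (53.1%), the Xist state as a term (40.1%) or only the groups compared (39.1%). With both BKO replicate 3 and WT replicate 2 left out it was also 8 (45.5%). In DKO against BKO 0 became 7 with quality weights (55.1%), with DESeq2 (22.5%) and with those 2 libraries left out (45.5%). It became 2 with edgeR with or without its filter (20.4% and 16%). In the interaction 0 became 7 with quality weights (40.9%) and with those 2 libraries left out (25.2%). Leaving out 1 library at a time gave 1 to 8 members in DKO against WT, 0 to 1 in BKO against WT, 0 to 8 in DKO against AKO, 0 to 7 in DKO against BKO and 0 to 7 in the interaction. In the same order, the shares were 19.9% to 45.1%, 0.022% to 0.0659%, 20.5% to 45.4%, 11.9% to 45.6% and 0.689% to 30.6%. The replicate block left 8 and 5 members called in DKO against WT (29.6%) and DKO against AKO (30%), and changed no member call. Under the block Irf1 (adjusted p = 0.0635) and Nkg7 (0.0606) were no longer called in DKO against WT and Rfxank (0.0266) was. Same-numbered libraries had correlations of -0.299 to 0.184, so the numbers were not read as pairs. DESeq2 gave no adjusted p for H2-DMb2.

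Signs turned only for uncalled values. H2-DMb2 in DKO against BKO (0.192) was at -0.19 with a pseudocount of 5, -0.054 with quantile scaling, -1.24 with quality weights, -0.54 without BKO replicate 2, -0.38 without BKO replicate 3 or with both left out, and -1.30 and -1.31 with edgeR with and without its filter. In the interaction H2-DMb2 (0.795) was at -0.82 with quality weights, -0.17 with both left out and -0.58 with edgeR. H2-Eb1 was at 0.027 and Cd74 at 0.068 in fits lacking BKO replicate 1; lacking BKO replicate 2, H2-Ab1 was at 0.080, H2-Eb1 at 0.185 and Cd74 at 0.182. Over all genes, the interaction called 541 in limma, 352 in edgeR, 1783 in DESeq2, 5596 with quality weights, 1701 with the Xist term, 329 with the block and 3428 with both left out. BKO against WT called 6 in limma, 3 with the block or a filter of 5, 2 with only the groups compared, 93 with quality weights and 249 in DESeq2. AKO against WT called 1, 2 with no filter or quality weights and 3 in DESeq2. DKO against BKO called 3144, 753 with only the groups compared, 6193 with both left out and 7529 with quality weights, which also called 7497 in DKO against WT (4348) and 7260 in DKO against AKO (4410). Without BKO replicate 1, H2-DMb2 in DKO against BKO was at 1.497 and called. Without BKO replicate 3 the interaction was at -2.50 for H2-Eb1, -2.65 for Cd74 and -2.87 for H2-Ab1. The cause of these shifts was not tested.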
